A study of Bos taurus with 8 samples.

Results

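The genes described here are 10 regulators that stand between insulin or glucagon in the blood and glucose release by the liver. They are the insulin receptor INSR and its adaptors IRS1 and IRS2, the glucagon receptor GCGR, the transcription factors FOXO1, CREB1 and KLF15, the coactivators PPARGC1A and CRTC2, and the hormone FGF21. An array probe was taken for a member when the RefSeq transcript accession printed for that probe belonged to the gene. By this rule 13 of 43637 probes were found, for 5 of the 10 genes. GCGR (NM_001192414), PPARGC1A (NM_177945) and CRTC2 (NM_001076250) had 3 probes each, and CREB1 (NM_174285) and KLF15 (NM_001082425) had 2 probes each. No probe was matched to INSR, IRS1, IRS2, FOXO1 or FGF21, and these 5 genes were not analysed here. The genes that could be measured therefore comprise the glucagon receptor, the factors CREB1 and KLF15 and both coactivators, and not the insulin receptor or its adaptors.

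Livers of 8 Japanese Black cattle fetuses were compared, each on its own Agilent bovine array in 1 colour. The dams of 4 fetuses (L5, L6, L8 and L9) received 60% of their nutritional requirement during gestation, and these fetuses form the low-nutrition (LN) group. The dams of the other 4 (L1, L2, L3 and L10) received 120% and form the high-nutrition (HN) group, so no group was fed exactly its requirement. The fetuses were taken at 8.5 months (day 260 ± 8.3) of gestation. By the paper's methods, all were conceived with male-sorted semen of a single sire, and the fetuses were those of lowest weight in LN and of highest weight in HN. The sample labels give 1 fetus per array, whereas the design text of the series speaks of pooled RNA. Each array was taken as 1 fetus.

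In the fed state, insulin acts through its receptor, the IRS adaptors and the kinase AKT to keep FOXO1 out of the nucleus, which lowers transcription of gluconeogenic genes. In fasting, glucagon binds GCGR on hepatocytes, raises cAMP and activates protein kinase A, which phosphorylates CREB1 and allows the coactivator CRTC2 to enter the nucleus. CREB1 with CRTC2 turns on PPARGC1A, the gene for PGC-1α, and PGC-1α together with FOXO1 and HNF4A turns on PCK1 and G6PC1, the genes for cytosolic phosphoenolpyruvate carboxykinase and for the catalytic subunit of glucose-6-phosphatase. KLF15 is a transcription factor that links amino acid breakdown to glucose production. Much of the control of GCGR, CREB1 and CRTC2 acts on the proteins, by phosphorylation and localisation, which an mRNA array does not measure.

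Of 43803 spots per array, 32635 to 34369 were well above background and 0 were saturated. The LN arrays shared 1 slide and 1 scan and the HN arrays another, and the effect of nutrition therefore cannot be told apart from that of slide or scan. Signals are given as log2 of the background-subtracted intensity after quantile normalization over the 8 arrays. Signals of different probes are not compared with each other. Nutrition groups were compared by a 2-sided limma test, adjusted over the 33439 probes that were well above background on at least 4 arrays, and an exact permutation test over the 8 fetuses, which cannot give a p below 0.0286, stands beside it. By limma, 0 of these probes passed an adjusted p of 0.05, and the number at an unadjusted p of 0.05 was 2113. The labelled tissue was checked with hepatocyte markers. Of 8 such markers 7 had a matched probe, and all 7 were detected, and their summed log2 signal was 20.81 to 20.89 in LN and 20.80 to 20.87 in HN.

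Among the 5 measured regulators, the means of PPARGC1A and CRTC2 were lower in LN, while GCGR, CREB1 and KLF15 differed between the groups by less than their SD within groups, each gene read from its brightest probe. With each gene read from its brightest detected probe, 0 of 5 passed an adjusted limma p of 0.05, as did 0.00% of 10860 genes. At an unadjusted limma p of 0.05, 1 of 5 (CRTC2) was lower in LN, against 2.75% of all genes, and 0 of 5 were higher, against 3.30%. PPARGC1A and CRTC2 were more than 1.2-fold lower, a size that 11.6% of all genes reached in that direction and 11.2% in the other, which 0 of 5 regulators reached. With 5 genes these counts say little about the set, and each gene is therefore described by its own values. The livers hold several cell types, and fewer cells of a type cannot be told apart from less RNA per cell.

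**Figure D1:**
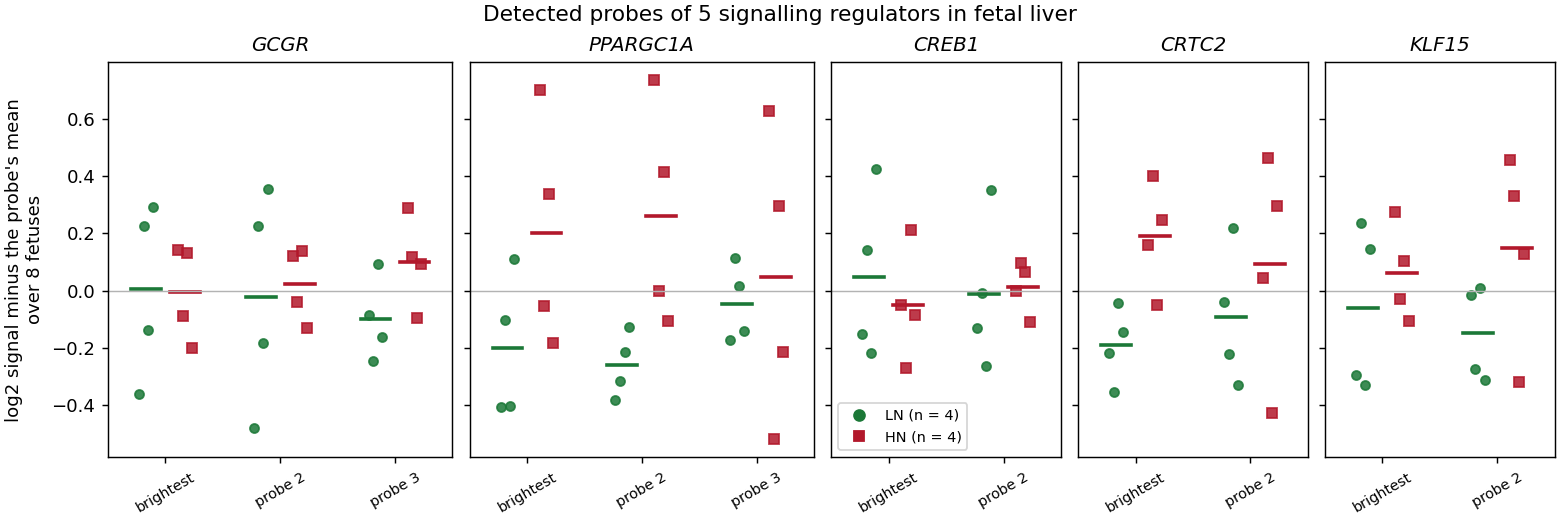
Each point is 1 fetus, LN as green circles and HN as red squares, and each bar is a group mean (n = 4). The y axis gives the log2 signal minus the mean of that probe over the 8 fetuses, for the 12 detected probes ordered by brightness within a gene. The second PPARGC1A probe is the 1 probe whose groups do not overlap.

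CRTC2, the cAMP-regulated coactivator of CREB1, had a log2 signal in its brightest probe of 9.35 in L5, 9.21 in L6, 9.52 in L8 and 9.42 in L9 among LN fetuses. In HN it was 9.72 in L1, 9.96 in L2, 9.51 in L3 and 9.81 in L10. HN fetus L3 lay just below L8, the highest LN fetus, and the other 3 HN fetuses lay above every LN fetus. The LN mean was 9.37 ± 0.13 and the HN mean 9.75 ± 0.19 (± SD over 4 fetuses). The log2 difference, LN minus HN, was -0.38 (standard error 0.13, 95% confidence interval -0.68 to -0.076), or 1.30-fold lower in LN, with an exact permutation p of 0.0571 and a limma adjusted p of 0.760. Its unadjusted limma p of 0.0199 became 0.0529 without LN fetus L6, 0.0576 without HN fetus L2 and 0.0653 with array position as a block.

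The dimmer detected CRTC2 probe differed in the same direction with a wide spread. Its log2 signal ran from 5.00 to 5.55 in LN and from 4.91 to 5.80 in HN, with L3 the lowest of all 8 fetuses. The log2 difference of this probe was -0.19 (standard error 0.21, 95% confidence interval -0.67 to 0.29, limma adjusted p = 0.904). The mean over both detected probes differed by -0.28, with an unadjusted limma p of 0.117. The third CRTC2 probe was well above background on 1 of 8 arrays and has no fold change here.

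PPARGC1A encodes PGC-1α, the coactivator through which fasting signals reach gluconeogenic and mitochondrial genes. In its brightest probe the LN fetuses were at 8.79 (L5), 9.09 (L6), 8.79 (L8) and 9.30 (L9). The HN fetuses were at 9.89 (L1), 9.14 (L2), 9.53 (L3) and 9.01 (L10). L1 and L3 were above all LN fetuses, whereas L2 and L10 lay between LN values. The log2 difference was -0.40 (standard error 0.22, 95% confidence interval -0.89 to 0.093), which is 1.32-fold lower in LN, with an exact permutation p of 0.143 and a limma adjusted p of 0.795. Its unadjusted limma p of 0.0994 fell to 0.0429 without HN fetus L10, and without HN fetus L1, the highest, the difference was -0.23.

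The second PPARGC1A probe separated the groups. Its log2 signal was 6.07 in L5, 6.14 in L6, 6.24 in L8 and 6.33 in L9, against 7.19 in L1, 6.45 in L2, 6.87 in L3 and 6.35 in L10. Every LN fetus lay below every HN fetus, although L9 and L10 were almost equal. The log2 difference was -0.52 (standard error 0.19, 95% confidence interval -0.96 to -0.085), or 1.43-fold lower in LN, with an exact permutation p of 0.0286, the smallest the design allows, and a limma adjusted p of 0.760. Of the 12 detected probes of the regulators, 1 had groups that did not overlap with LN lower, against 1.69% of all detected probes. Its unadjusted limma p of 0.0244 rose to 0.0580 without L5, 0.0510 without L6, 0.0597 without L1 and 0.0604 without L3. The difference of this probe was -0.30 with normexp background correction and -0.64 with scaling to the 75th percentile. The third probe, with a signal from 4.20 to 4.48 in LN and 3.85 to 4.99 in HN, differed by -0.093 (standard error 0.24, limma adjusted p = 0.960), and by 0.10 without L1.

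The SDs of PPARGC1A in HN were larger than in LN in its 3 probes. They were 0.40 against 0.25 in the brightest, 0.39 against 0.11 in the second and 0.51 against 0.13 in the third. L1 was the highest HN fetus and L3 the next in each probe. The spread between HN fetuses thus had the same order at the top in probes that share a transcript, and the difference in spread was not tested.

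GCGR, the receptor through which glucagon reaches hepatocytes, was well above background on all 8 arrays with each of its 3 probes. The brightest probe was at 13.69 in L5, 14.28 in L6, 13.92 in L8 and 14.35 in L9. In HN it was at 14.20 in L1, 13.97 in L2, 14.19 in L3 and 13.85 in L10. The HN fetuses all lay within the LN range, and the lowest and the highest signals both belonged to LN fetuses. The log2 difference was 0.0084 (standard error 0.17, 95% confidence interval -0.39 to 0.40, exact permutation p = 1.00, limma adjusted p = 0.995), so that a change in either direction of up to about 1.32-fold higher or to 0.766 of the HN level stayed within the interval. The second probe differed by -0.043 (standard error 0.19, limma adjusted p = 0.979). The third differed by -0.20 (standard error 0.13, limma adjusted p = 0.825), with signals of 6.25 to 6.59 in LN and 6.40 to 6.78 in HN, a difference above its pooled SD of 0.15. With scaling to the 75th percentile it was -0.32 (limma unadjusted p = 0.0348).

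CREB1, the transcription factor phosphorylated by protein kinase A, was at 6.96 in L5, 7.25 in L6, 6.89 in L8 and 7.53 in L9 by its brighter probe. The HN fetuses were at 7.06 in L1, 6.84 in L2, 7.32 in L3 and 7.02 in L10. The groups overlapped almost completely. The log2 difference was 0.098 (standard error 0.17, 95% confidence interval -0.30 to 0.49, exact permutation p = 0.657, limma adjusted p = 0.942), and it was -0.00040 when arrays were scaled to their 75th percentile. The other probe differed by -0.025 (standard error 0.15, limma adjusted p = 0.983), and the direction of either probe turned when single fetuses were left out.

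KLF15 was at 12.49 (L5), 13.03 (L6), 12.46 (L8) and 12.94 (L9) in LN and at 13.07 (L1), 12.76 (L2), 12.89 (L3) and 12.68 (L10) in HN by its brighter probe. L5 and L8 were below all HN fetuses, and L6 and L9 lay among them. The log2 difference was -0.12 (standard error 0.17, 95% confidence interval -0.50 to 0.26, exact permutation p = 0.486, limma adjusted p = 0.923). Its dim probe, at 3.13 to 3.45 in LN and 3.12 to 3.89 in HN, differed by -0.30 (standard error 0.18, limma adjusted p = 0.818). For that probe the value was 0.016 with normexp background correction and -0.52 with scaling to the 75th percentile (limma unadjusted p = 0.00783). It was -0.45 without L3 (limma unadjusted p = 0.0163) and -0.19 without L1, and the brighter probe ran from -0.22 without L6 to -0.033 without L8.

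**Figure D2:**
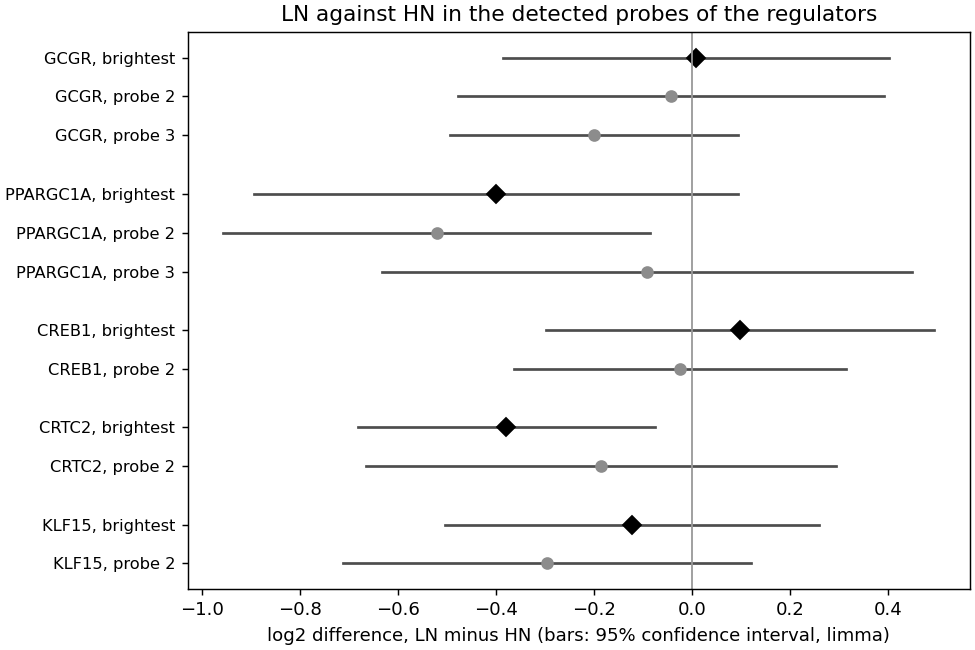
Differences of the 12 detected probes on the log2 scale, LN minus HN, with 95% confidence intervals from limma. Black diamonds mark the brightest probe of a gene and grey circles the others. The intervals of the brightest CRTC2 probe and of the second PPARGC1A probe lie below 0, and the other 10 include 0.

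Of the 12 detected probes, 10 had a lower mean in LN, against 49.7% of all detected probes. At an unadjusted limma p of 0.05, 2 of 12 were lower, against 2.97% of detected probes, and 0 were higher, against 3.35%. Probes of one gene share its transcript and are not independent. By brightest probes the lower means were 3 of 5, against 48.4% of all genes, and with scaling to the 75th percentile 4 of 5, against 54.4%. The split of all genes past 1.2-fold moved with that scaling, from 50.9% to 66.9% lower in LN, and that of all genes at an unadjusted limma p of 0.05 from 45.5% to 64.6% lower, while the differences of CRTC2 and PPARGC1A became -0.38 and -0.41.

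The spread of the regulators between fetuses was near that of other genes. The pooled SD within groups was 0.16 for CRTC2, 0.24 for KLF15, 0.25 for GCGR and CREB1 and 0.33 for PPARGC1A, against a median of 0.23 over all genes. For their target G6PC1 it was 1.77 and for PCK1 0.99. The log2 signal of G6PC1 ran from 5.24 to 9.10 in LN and from 7.93 to 11.95 in HN. PCK1 ran from 6.44 to 8.05 in LN and from 7.88 to 10.72 in HN. Differences of both enzyme genes were many times those of the regulators, at -3.47 for G6PC1 (standard error 1.04) and -1.98 for PCK1 (standard error 0.59), with limma adjusted p of 0.760 for each.

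The relation of each regulator to these target genes was examined across the 8 fetuses in 10 pairs, with exact permutation tests adjusted over the 10. The permutations, here and in the pairs below, mixed the groups, so each p also holds the difference between groups and slides. No p was computed with the group means removed. CRTC2 had the highest correlation with both enzyme genes. With G6PC1, Pearson's r was 0.82 (exact permutation p = 0.0152, adjusted p = 0.0765) and Spearman's rho 0.76 (exact permutation p = 0.0368, adjusted p = 0.368). With PCK1, r was 0.81 (exact permutation p = 0.0153, adjusted p = 0.0765) and rho 0.60 (exact permutation p = 0.132, adjusted p = 0.441). Without L6 and L2, the fetuses farthest from the median of CRTC2, r was 0.87 with G6PC1 and 0.98 with PCK1. HN fetus L3 had the lowest CRTC2, G6PC1 and PCK1 of its group, at levels within or next to the LN range. A slide holds 4 fetuses of 1 group, too few for a correlation within slides. With the group means removed, r over the 8 fetuses was 0.55 with G6PC1 and 0.52 with PCK1. Within HN, L3 was the lowest and L2 the highest in both CRTC2 and G6PC1. Within LN the orders differed, with L6 lowest and L8 highest in CRTC2 but L5 lowest and L9 highest in G6PC1.

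The correlations of PPARGC1A with the enzyme genes were lower in value. With G6PC1, r was 0.52 (exact permutation p = 0.185, adjusted p = 0.615) and rho 0.64 (exact permutation p = 0.0962, adjusted p = 0.441), and without L1 and L3 r was 0.61. With PCK1, r was 0.35 (exact permutation p = 0.402, adjusted p = 0.729) and rho 0.43 (exact permutation p = 0.299, adjusted p = 0.499), and without L1 and L3 r was 0.35. HN fetuses L2 and L10 had high G6PC1 and PCK1 with PPARGC1A in the LN range. Within LN, PPARGC1A and GCGR had the same order as G6PC1, rising from L5 through L8 and L6 to L9. Within HN, neither had the order of G6PC1. With the group means removed, r was 0.18 and -0.14. The difference between the correlations of CRTC2 and PPARGC1A was not tested. For GCGR, CREB1 and KLF15, r ran from -0.25 to 0.46 over the 6 pairs, and the lowest of their adjusted exact permutation p for r was 0.630.

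**Figure D3:**
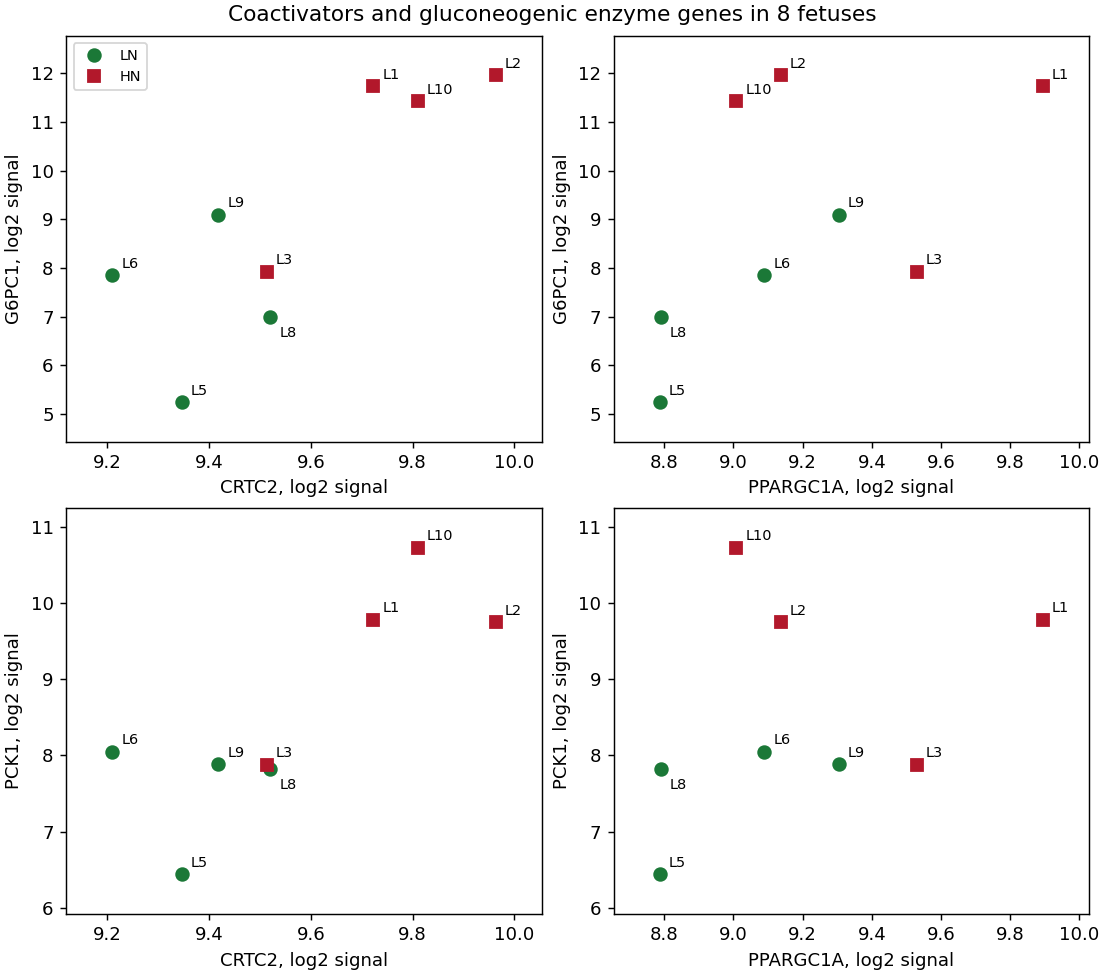
Log2 signals of the brightest probes of CRTC2 (left) and PPARGC1A (right) on the x axes against G6PC1 (top) and PCK1 (bottom) on the y axes, 1 point per fetus, LN as green circles and HN as red squares. L1, L2 and L10 are high in CRTC2 and in both enzyme genes, and in the CRTC2 panels L3 lies with the LN fetuses.

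The regulators were also set against each other, in 10 pairs and against the brightness of each array (the 75th percentile of its intensities) in 5, a choice made after the data had been seen. GCGR and KLF15 had an r of 0.87 (exact permutation p = 0.00690, rho 0.83, exact permutation p = 0.0154), and 0.87 also without L5 and L9. PPARGC1A and KLF15 had an r of 0.81 (exact permutation p = 0.0127, rho 0.81, exact permutation p = 0.0218), and 0.86 without L1 and L3. Adjusted over the 15 relations, the p of r was 0.0951 for both pairs and that of rho 0.163. GCGR and CREB1 had an r of 0.79 (exact permutation p = 0.0220, adjusted p = 0.110). The r of CRTC2 with the other 4 lay between -0.52 and 0.23. Brightness moved with some of these genes, with an r of -0.76 for CREB1, -0.68 for GCGR and -0.54 for KLF15 (exact permutation p = 0.0302, 0.0661 and 0.166, each above 0.05 when adjusted), and its part in the pairs was not tested.

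The genes most like PPARGC1A, CRTC2 and CREB1, the 3 regulators with the largest SD over all 8 fetuses (group difference included), were listed by Pearson's r over the 8 fetuses, with no test, since 10860 genes were searched. They were CABYR (r = 0.96) and GPANK1 (r = 0.94) for PPARGC1A. For CRTC2 they were ECRG4 (r = 0.97) and FITM1 (r = 0.96), and for CREB1 they were ESRP1 (r = 0.99) and EPB41 (r = 0.98).

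Around the regulators, 119 further genes of 9 lists were considered by role, of which 91 had a detected probe. By limma 0 of the 91 passed an adjusted p of 0.05. At an unadjusted limma p of 0.05, 4 were lower and 5 higher in LN, against 2.75% and 3.30% of all genes, and the median log2 difference was -0.065, against 0.0075 over all genes.

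On the insulin side, 0 of 13 genes that carry the signal from the receptor onwards had an unadjusted limma p of 0.05 or less, and their median log2 difference was -0.059, which was 0.0057 without L8 and 0.011 without L3. The gene with the largest difference was AKT2, the kinase of the hepatic insulin response, at -0.42 (standard error 0.21, limma adjusted p = 0.787), and its probe was well above background on 2 LN and 4 HN arrays. Its difference was -0.043 with normexp correction and -0.63 with scaling to the 75th percentile (limma unadjusted p = 0.00654). Without L8 the AKT2 difference was -0.53 (limma unadjusted p = 0.0429). With that scaling or without L8, the count was 1 of 13. Genes that damp insulin signalling had the most values past the unadjusted threshold, 4 of 9, with 1 lower and 3 higher in LN, against 2.75% and 3.30% of all genes, and a median of 0.17. PHLPP2, a phosphatase of AKT, was 1.03 higher (standard error 0.40, limma adjusted p = 0.782) and 0.42 higher with normexp correction, with signals of 5.18 to 6.61 in LN and 4.24 to 5.62 in HN. TRIB3, a pseudokinase that binds AKT and is also a target of ATF4, was 0.73 higher (standard error 0.26, limma adjusted p = 0.760), and 3 of its LN fetuses lay above all HN fetuses. INPPL1, the lipid phosphatase SHIP2, was 0.52 higher (standard error 0.20, limma adjusted p = 0.765), 0.31 higher with normexp correction and 0.23 higher with the mean over probes. GRB14, an adaptor that binds and inhibits the insulin receptor, was 0.42 lower in LN, a difference of -0.42 (standard error 0.18, limma adjusted p = 0.785). The count of 4 fell to 0 without LN fetus L5, to 1 without L6, L8 or L2 and to 2 without L1 or L3. It was also 2 with scaling to the 75th percentile, with array position as a block and with the mean over probes.

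On the glucagon side, 0 of 18 genes of cAMP production, protein kinase A, phosphodiesterases, CREB relatives and SIK kinases had an unadjusted limma p of 0.05 or less. Of the 18, 14 had a lower mean in LN, against 48.4% of all genes, and the median was -0.089. The count of 0 became 2 with normexp correction and 1 with scaling to the 75th percentile, with array position as a block, with the mean over probes and without L1 or L3. The gene with the largest difference was CREM, a CREB relative that cAMP induces. It was at 6.21 to 6.84 in LN and at 6.94 in L1, 7.68 in L2, 6.40 in L3 and 8.73 in L10. HN fetus L3 was among the LN fetuses and the other 3 HN fetuses were above them, the same division as in CRTC2 and G6PC1. The log2 difference of CREM was -0.96, with a standard error of 0.44, a limma adjusted p of 0.785 and an exact permutation p of 0.0857, and it was -0.53 without L10 and -1.30 without L3. Its unadjusted limma p of 0.0586 became 0.00996 without L3, 0.0482 without L1, 0.0363 with array position as a block and 0.0378 with scaling to the 75th percentile.

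Among FOXO relatives and partners of FOXO1 and PGC-1α, 1 of 16 genes had an unadjusted limma p of 0.05 or less. Over all genes 2.75% were lower and 3.30% higher at that p. The count became 0 without L8 and 2 without L1. The gene called in the main fit was PRMT1, an arginine methyltransferase that modifies FOXO1 and PGC-1α. It was 0.26 higher in LN (standard error 0.11, limma adjusted p = 0.785). Its unadjusted limma p of 0.0472 became 0.0574 with scaling to the 75th percentile, 0.123 with array position as a block and 0.366 with the mean over probes (a difference of 0.15), and it was above 0.05 when any 1 fetus but L5 or L1 was left out. HNF4A, the hepatocyte factor that works with PGC-1α, differed by -0.070, and NR3C1, the glucocorticoid receptor, by 0.15. Of 8 genes of the FGF21 axis, 1 had an unadjusted limma p of 0.05 or less, against 2.75% lower and 3.30% higher of all genes. This count became 2 without L5. In the main fit the gene was ATF4, a stress-response factor that induces FGF21. It was 0.48 higher in LN, with a standard error of 0.16 and a limma adjusted p of 0.760. Its LN fetuses were at 15.62 to 16.06 and its HN fetuses at 15.10 to 15.69. KLB, the coreceptor of FGF21, differed by 0.034, and FGFR4, the main FGF receptor of hepatocytes, by -0.056.

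Genes whose transcription these hormones control had a median of -0.27 over 12 genes (-0.16 without L5 and -0.14 with normexp correction), of which 6 were more than 1.2-fold lower, against 11.6% of all genes, and 0 more than 1.2-fold higher in LN, against 11.2%. G6PC1, PCK1 and FBP1 are in this list, and the study named them from these arrays, so their direction here is not independent evidence. The paper also reports these genes lower in LN by qRT-PCR, which included fetuses without an array here. TAT, which the paper lists among its downregulated genes, differed by 0.073, with 2 of its 3 detected probes lower. FBP1, which encodes fructose-1,6-bisphosphatase, differed by -0.42 (standard error 0.17, limma adjusted p = 0.785), and its unadjusted limma p of 0.0384 was above 0.05 when any 1 fetus but L3 was left out. IGFBP1, a FOXO1 target that insulin represses, differed by -0.086 (limma unadjusted p = 0.811), and PDK4, another fasting gene, by -0.40 (limma unadjusted p = 0.520). Of 5 enzymes of amino acid breakdown linked to KLF15, 0 had an unadjusted limma p of 0.05 or less, with a median of -0.19 that ran from -0.38 without L3 to -0.074 without L1. The largest difference among them was that of GPT, alanine aminotransferase, at -0.48 (standard error 0.23, limma adjusted p = 0.787) and at -0.26 with normexp correction. Its unadjusted limma p of 0.0665 became 0.0277 with scaling to the 75th percentile, 0.0493 without L5, 0.0476 without L8 and 0.0291 without L3, and the count for the list was then 1 of 5. The counts were 0 of 5 for AMP-activated kinase subunits, where PRKAA1 differed by -0.27 with 3 of its 8 detected probes lower, and 0 of 5 for other hormone receptors, with a median of -0.12 (-0.012 without L1 and -0.31 with scaling to the 75th percentile).

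**Figure D4:**
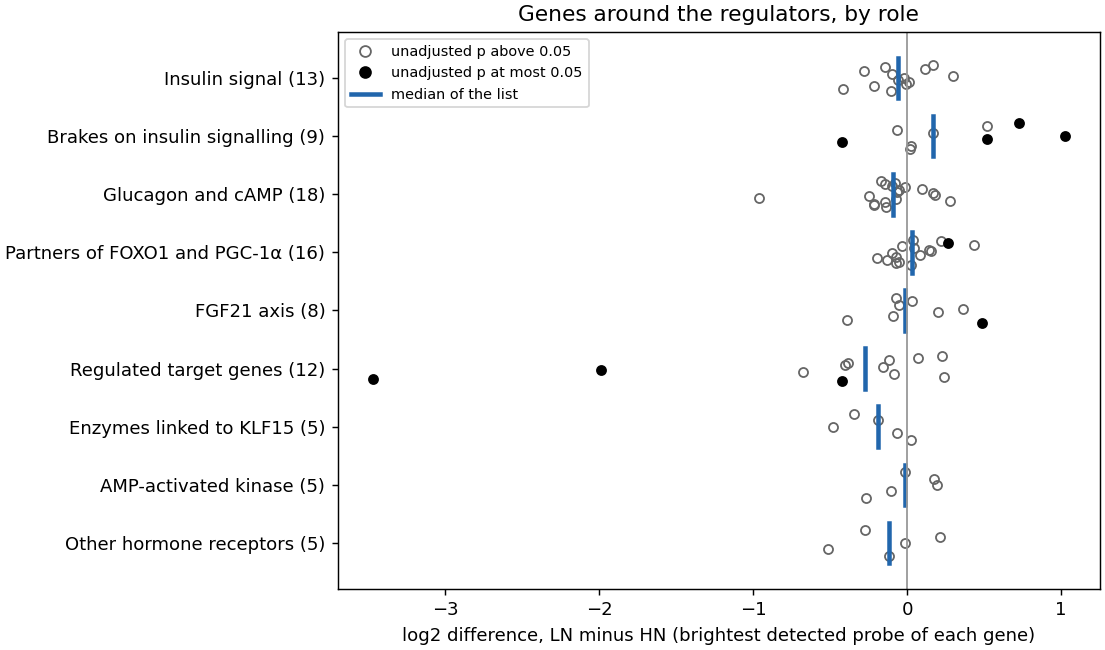
Each circle is 1 gene, placed by its log2 difference, LN minus HN, in its brightest detected probe, with the number of genes of each list in brackets. Filled circles mark an unadjusted limma p up to 0.05, and blue bars are medians. G6PC1 and PCK1 are the 2 points farthest to the left, at -3.47 and -1.98.

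Markers of other cell types were read beside these results. The summed log2 signal of 7 detected neutrophil genes was 12.71 to 14.34 in LN and 11.53 to 12.78 in HN, and 6 of the 7 had a higher mean in LN (median 0.91 on the log2 scale), and 3 of the 7 were at an unadjusted limma p of 0.05. Over all genes 48.4% had a lower mean in LN, and 2.75% were lower and 3.30% higher at that p. Of 8 erythroid markers 7 were detected, all with a higher mean in LN (median log2 difference 1.21, 0 at an unadjusted limma p of 0.05), and their sum ran from 13.83 to 17.09 in LN and from 12.96 to 14.98 in HN. SLC4A1, the anion exchanger of red cells, was not detected. The 5 detected lymphocyte markers all had a lower mean in LN, 1 of them at an unadjusted limma p of 0.05, with a median of -0.35 and sums of 13.13 to 13.28 and 13.24 to 13.48. Sums of Kupffer cell, endothelial, stellate and cholangiocyte markers overlapped between the groups as well, and 1 cholangiocyte marker had an unadjusted limma p of 0.05 or less. The part of blood cells in the values of CRTC2 and PPARGC1A was not tested.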

How the data were processed

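RNA from the livers of 4 LN and 4 HN fetuses was read on Agilent bovine arrays in 1 colour. The deposited scanner files, made by the authors with Agilent Feature Extraction 11.0.1.1, give each spot an intensity after background subtraction and spatial detrending on its own array. The authors also deposited log2 values of 31068 probes, quantile normalized in GeneSpring GX, which lie within 0.042 of quantile-normalized scanner values of the same probes. No array test is named in the paper's methods.

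Here control spots and outlier spots were left out (16 probes), log2 signals of repeated spots were averaged, and quantile normalization was applied across arrays. Of 43653 probes, 26743 carried an accession of a gene in the RefSeq table (assembly ARS-UCD2.0). The array was designed on UMD 3.1, so no coordinates are given, and no sequences were at hand. For each gene the detected probe of highest mean signal (the brightest) was used. The groups were compared in limma 3.58.1 (R 4.3.3), tested on simulated data, with Benjamini-Hochberg adjustment. Student's test per probe was among the alternatives. The members, the lists and the alternatives were chosen with earlier results of these data known. Named were all members, G6PC1 and PCK1, and in each list up to 3 genes per direction at an unadjusted p of 0.05, by size, or else the gene with the largest difference. The 2 genes most like each of the 3 most variable members were also named. HNF4A, NR3C1, KLB, FGFR4, IGFBP1 and PDK4 were named after their values were seen, for their roles. TAT was added because the paper lists it among its downregulated genes. For 1 more gene that the rule names, no value is reported here, and the counts still hold it. The number of arrays limits the precision, and the p-values measure the spread between these fetuses.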

Additional observations from a re-analysis of the deposited data

Results flagged for a closer look

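The signals of the named genes were searched for a fetus far from the others of its group, in 54 sets of 4 fetuses (27 probes in 2 groups). Chance gives about 1 such fetus in 20 sets, and 2 were found, both in target genes and not in a regulator. For G6PC1, HN fetus L3 had a log2 signal of 7.926, against 11.44 to 11.95 in the other 3 HN fetuses. For PCK1, LN fetus L5 had a log2 signal of 6.440, against 7.82 to 8.05 in the other LN fetuses.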

How the results depend on the processing

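The number of detected probes past an adjusted p of 0.05 was 0 in every setting except without LN fetus L6, where it was 1 (range 0 to 1 with each fetus left out), and the number at an unadjusted p of 0.05, which was 2113, ran from 1343 without HN fetus L10 to 2639 without L3 with each fetus left out, and was 2813 with scaling to the 75th percentile and 2963 with no filter on dim probes. The count of regulators lower in LN at an unadjusted p of 0.05, which was 1, became 0 with array position as a block and 0 with the mean over a gene's probes. With each fetus left out it ran from 0 (without L6 or L2) to 2 (without L10). In all alternatives the brightest CRTC2 probe stayed between -0.46 and -0.31 and the dimmer detected one between -0.36 and -0.063. The mean over both detected CRTC2 probes was -0.28. The brighter 2 PPARGC1A probes stayed between -0.64 and -0.23. Values near 0 turned, and so did some larger ones. The mean over the 3 detected GCGR probes was -0.078. With a fetus left out the brightest GCGR probe ran from -0.087 to 0.13, and the second from -0.17 to 0.11. The brighter CREB1 probe was -0.00040 with scaling to the 75th percentile and ran from -0.027 to 0.19 with a fetus left out, and the other from -0.15 to 0.059. The third PPARGC1A probe ran from -0.28 to 0.10 with a fetus left out and was -0.29 with scaling to the 75th percentile. The dim KLF15 probe, at -0.30 in the main fit, was 0.016 with normexp correction. PRKAA1, at -0.27 in the main fit, was 0.026 with the mean over probes. The correlation of CREB1 with G6PC1 was 0.11 with scaling to the 75th percentile and ran from -0.36 to 0.13 with a fetus left out, that of GCGR from -0.28 to 0.42 with G6PC1 and from -0.55 to 0.36 with PCK1, and that of KLF15 with PCK1 from -0.037 to 0.53. The causes were not tested. No paired analysis was possible because LN and HN fetuses share no replicate number. Array position, which holds 1 array of each group, is a technical block. Dim probes, such as the third of CRTC2, limit what the signal over background can show.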
